A study of Sycon ciliatum with 26 samples.

Results

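The juvenile-like stages that close the regeneration of the calcareous sponge Sycon ciliatum were compared with the structures present at days 6 to 8 after dissociation. The stages were chosen by their sample labels, as the 3 libraries of days 16 to 18, named PJUV, and the 2 libraries of days 21 to 24, named JUV, against the 6 libraries of days 6 to 8. These are 11 of the 26 libraries of the series. All are RNA sequencing libraries of regenerating structures that formed again from cells of dissociated animals, with no further treatment named in the labels. The 4 libraries of days 10 to 14 and the libraries of days 1 to 4 are used to show the course of the genes, and the adult library, made from dissociated cells of a whole animal, gives their level there. The labels do not say how many animals or cultures went into a library, and p-values measure only the spread between libraries.

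Sponges are built from few cell types. Flagellated collar cells, the choanocytes, drive water through the body and catch food, pinacocytes cover the surfaces, and in calcareous sponges sclerocytes secrete spicules of calcium carbonate. Cells of a dissociated sponge can aggregate, sort themselves into an outer and an inner layer and rebuild a small sponge with an osculum, the opening through which the water leaves. The series title sets this course beside development after the larval stage. The gene IDs in the files are not paired with gene names, and 0 of 35307 IDs matched the 26717 genes of the RefSeq table of the species. The changes are therefore described by number, size, level and course, with 2 IDs shown in each direction, and the cell types of the libraries were not checked against marker genes. In libraries made from whole structures, fewer cells of a type and less RNA per cell cannot be told apart.

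The late libraries were the deeper ones. Total counts lay between 11863223 and 15395912 in the 5 late libraries, against 8328070 to 11306378 at days 6 to 8. Depth and stage therefore run together, and a comparison at equal depth is given beside the counts of genes. Pairs of libraries within each window from days 6 to 8 onward were checked for double deposits, and the lowest chi-square per gene was 15.1, above sampling noise. Pairs of earlier libraries and pairs across windows were not checked.

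At days 16 to 24, 680 gene IDs were higher and 1085 were lower than at days 6 to 8. Those 1765 IDs are 7.36% of the 23995 tested, with 2.83% called higher and 4.52% called lower (edgeR's quasi-likelihood test, Benjamini-Hochberg adjusted p under 0.05). DESeq2 called 2969 (12.4%), 1039 higher (4.34%) and 1930 lower (8.06%). A fit of only the 11 libraries compared called 2363 of 22011 tested IDs, 1037 higher and 1326 lower. Of these 2363, 1508 were among the 1765. The IDs that rose were mostly genes already in use at days 6 to 8. Their median level was 18.8 CPM (counts scaled to library size) at days 16 to 24 against 7.32 CPM at days 6 to 8, and only 27 of the 680 had at most 3 counts in every library of days 6 to 8. The IDs that fell reached low levels, with a median of 1.53 CPM at days 16 to 24 against 6.04 CPM at days 6 to 8. Of the 1085, 138 had at most 3 counts in each of the late libraries, and in 35 of these every late library was at 0.

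Among the called IDs, changes downward were larger than changes upward. The median size of the fitted change was 2.13 on the log2 scale among the IDs that fell and 1.32 among those that rose, compared with 0.37 over all IDs tested. Where no library of the lower side exceeded 3 counts, the size rests on the model's prior count. With these IDs held at the bound that 3 counts per library allows, the medians were 1.85 for IDs that fell and 1.31 for IDs that rose. A change of at least 2 on the log2 scale, held at the same bound, was found in 497 (45.8%) of the IDs that fell and in 164 (24.1%) of those that rose. The IDs that fell were less abundant, with a median of 6.04 CPM where higher, against 18.8 CPM for those that rose. Of the IDs that fell, 140 were under 1 CPM there, against 16 of those that rose. Low counts need a larger change to pass the test. Whether both directions differ in size was not tested, also not at equal level.

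The balance of directions moved with the level of the gene. Among the 5292 IDs with a mean below 1 CPM over the 11 libraries, 45 (0.85%) were higher and 222 (4.20%) lower at days 16 to 24. Between 1 and 10 CPM, 248 (2.65%) of 9347 IDs were higher and 481 (5.15%) lower. Between 10 and 100 CPM the order was the other way, with 327 (4.12%) of 7933 IDs higher and 284 (3.58%) lower. At 100 CPM and above, 60 (4.22%) of 1423 were higher and 98 (6.89%) lower. Low counts leave less chance to pass the test, so the shares are not comparable as rates of change between levels. The filter used all libraries of regenerating structures, so an ID low in these 11 could enter through other windows. Log2 medians relative to days 6 to 8 were 0.62 and 0.56 at days 1 and 2 for falling IDs. For rising IDs they were -0.5 and -0.43. The fit of only the 11 libraries called 1037 higher and 1326 lower, not split by level. Whether the filter favours lower calls at low levels was not tested.

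**Figure D1:**
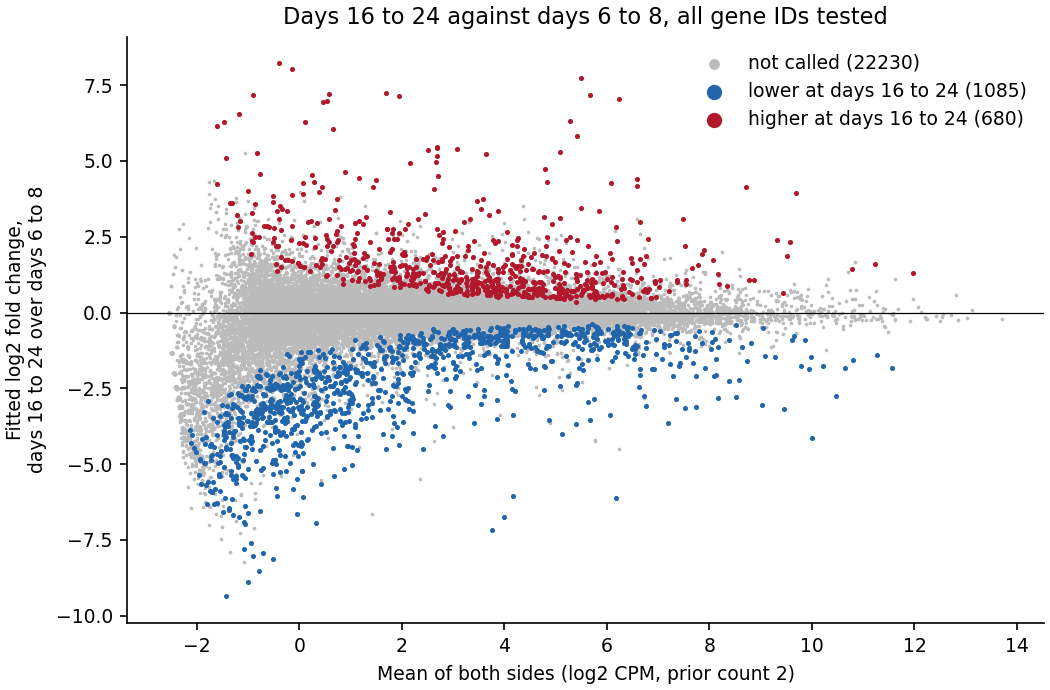
Fitted log2 fold change of days 16 to 24 over days 6 to 8 against the mean of both sides in log2 CPM, 1 point per gene ID tested. The 680 IDs called higher (red) lie mostly at middle levels, and the 1085 called lower (blue) reach farther from 0 and farther into low levels.

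The number of genes called fell most when a library of days 21 to 24 was left out. Both late windows have equal weight in the contrast, so the 1 library left then carries its window alone. The filter also kept more IDs, 25427 and 25415. The cause of the fall was not tested, and the fall does not show in which window the change lies. With the late libraries as 1 group, 1503 IDs were called, and 700 and 647 without replicates 1 and 2 of days 21 to 24. Those were of 23866 and 23854 tested IDs. Leaving out a library of days 16 to 18 gave 999 to 1328 with this grouping, and 1 of days 6 to 8 gave 925 to 1531. The fall was thus largest for days 21 to 24 with this grouping too. Without replicate 1 of days 21 to 24, 470 IDs were called, 262 higher and 208 lower, and without replicate 2 of that window 364 were called, 198 higher and 166 lower, so that the larger share of lower calls was lost as well. Leaving out replicate 1 of days 16 to 18 left 1104 of 23879 tested IDs called. Of the 470 and 364 IDs, 461 and 361 were among the 1765. With all libraries thinned to the smallest total of the series, 1490 of 21738 tested IDs were called, 610 higher and 880 lower.

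Each late window was also set against the same 6 libraries of days 6 to 8, so both comparisons share these libraries. At days 16 to 18, 277 IDs (1.15%) were called in edgeR, 170 (0.708%) higher and 107 (0.446%) lower. At days 21 to 24, 825 IDs (3.44%) were called, 472 (1.97%) higher and 353 (1.47%) lower. In DESeq2 the balance turned. It called 1091 IDs (4.56%) at days 16 to 18, 393 higher (1.64%) and 698 lower (2.91%), and 2065 (9.35%) at days 21 to 24, 755 higher (3.42%) and 1310 lower (5.93%). Upper-quartile scaling, chosen after seeing the data, gave 397 higher and 444 lower at days 21 to 24, so that neither direction can be called the larger in either window. Tested directly, days 21 to 24 differed from days 16 to 18 in 11 IDs (0.0458%) in edgeR, 9 higher (0.0375%) and 2 lower (0.00834%), with an unadjusted p under 0.05 for 1706 (7.11%). DESeq2 called 81 (0.338%), 53 higher (0.221%) and 28 lower (0.117%). For the IDs called in the joint comparison, days 21 to 24 lay farther from days 6 to 8 than days 16 to 18 did in 507 of 680 that rose (74.6%) and in 836 of 1085 that fell (77.1%), compared with 62.9% of all IDs tested. The IDs were chosen on these libraries with equal weight for both windows, so that each library of days 21 to 24 counted for more than each of days 16 to 18, and the excess over all IDs is not read as a result.

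The called genes were then followed library by library. The median level of the 680 IDs that rose, relative to the mean of days 6 to 8 on the log2 CPM scale, was 1.07, 1.02 and 1.06 in replicates 1 to 3 of days 16 to 18 and 1.39 and 1.48 at days 21 to 24. In the 6 libraries of days 6 to 8 it lay between -0.14 and 0.19. The median of the 1085 IDs that fell was -1.40, -1.17 and -1.13 at days 16 to 18 and -1.74 and -1.77 at days 21 to 24, against -0.28 to 0.39 at days 6 to 8. The groups do not overlap, which the choice of the IDs in these libraries fixes, and no test is given. Both medians were farthest out in the 2 libraries of days 21 to 24.

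Summed over the IDs, the change took up a visible part of each library. The IDs that rose held 5.01%, 5.20% and 8.34% of all counts in replicates 1 to 3 of days 16 to 18 and 7.62% and 7.24% at days 21 to 24, against 1.66% to 2.64% at days 6 to 8. The IDs that fell held 3.43%, 3.44% and 3.20% at days 16 to 18 and 3.03% and 2.33% at days 21 to 24, against 5.30% to 14.6% at days 6 to 8. A few abundant IDs carry much of these sums. The 10 most abundant of the 680 made up 46.9% of the counts of the IDs that rose at days 16 to 24, and the 10 most abundant of the 1085 made up 40.5% of the counts of the IDs that fell at days 6 to 8. Without these 10, the rest of the rising IDs held 3.55% ± 0.708 of the counts at days 16 to 24 (SD, n = 5), against 1.31% ± 0.229 at days 6 to 8 (SD, n = 6). The rest of the falling IDs held 2.13% ± 0.200 at days 16 to 24 (SD, n = 5), against 5.59% ± 1.82 at days 6 to 8 (SD, n = 6).

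**Figure D2:**
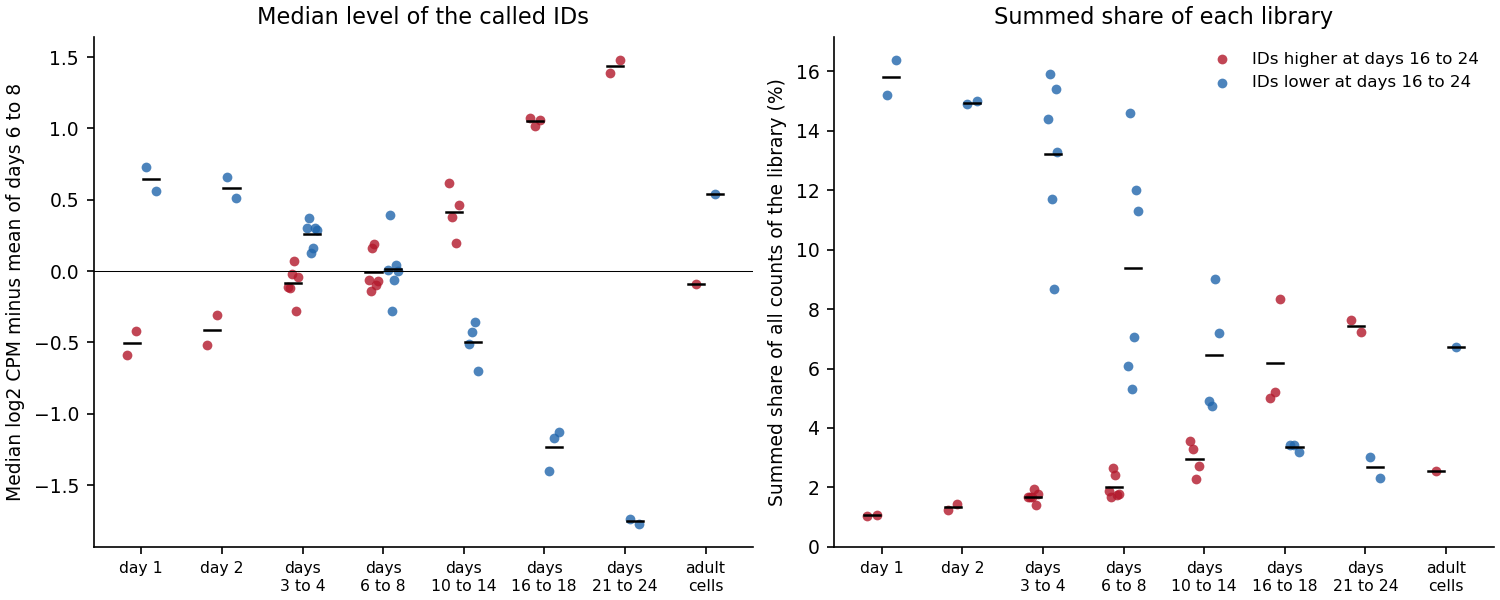
Called IDs in every library, by time window. Left, the median over the IDs of log2 CPM minus the mean of days 6 to 8; right, their summed share of all counts of the library in percent. Points are libraries and bars are means. The rising IDs (red) stand at medians of 1.02 to 1.48 at days 16 to 24 and the falling IDs (blue) at -1.77 to -1.13, with days 10 to 14 in between and the adult library at -0.09 and 0.54.

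The libraries of days 6 to 8 differed among themselves more in the IDs that fell than in those that rose. The median SD over the 6 libraries on the log2 CPM scale was 0.700 for the IDs that fell and 0.457 for the IDs that rose, with 0.457 over all IDs tested. Over the 5 late libraries it was 0.507 for falling and 0.444 for rising IDs, with 0.374 over all. A range of more than 10-fold within days 6 to 8 was found in 152 of the 1085 falling and 35 of the 680 rising IDs, and in 1407 of all 23995 tested.

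For a part of the IDs both sets of libraries were fully apart. Every library of days 16 to 24 was above every library of days 6 to 8 in 396 of the 680 IDs that rose (58.2%), where such a separation was found in 3.04% of all IDs tested. The 5 late libraries were all below the 6 libraries of days 6 to 8 in 461 of the 1085 IDs that fell (42.5%), against 2.86% of all tested. Over all IDs tested, 729 were apart with the late libraries higher and 687 with them lower, an order opposite to that of the calls. The IDs were called on these same libraries, so the excess over all IDs is not read as a result. The gap between both sets had a median of 0.31 on the log2 CPM scale for rising and 0.28 for falling IDs. A gap of at least 1 was found in 39 rising and 39 falling IDs. It was counted among called IDs only, so no share over all IDs tested stands beside it.

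The 2 IDs with the widest gap in each direction are shown, among called IDs that changed by 1 or more on the log2 scale and averaged 10 CPM or more where they were higher. This choice fixes that the libraries of both sides are apart and that the IDs were called, so neither is a result. MSTRG.3282 was near 0 before the late windows. It had 3.36, 3.48 and 29.1 CPM in replicates 1 to 3 of days 16 to 18 and 24.8 and 3.65 CPM in replicates 1 and 2 of days 21 to 24. At days 6 to 8 it had no count in replicates 1, 2, 4 and 5, 0.0903 CPM in replicate 3 and 0.431 CPM in replicate 6. The lowest late library held 44 counts and the highest library of days 6 to 8 held 5. The fitted log2 fold change was 6.95 (edgeR adjusted p 0.000747), a value that depends on the prior count because most libraries of days 6 to 8 are at 0. It passed in all 21 alternatives that tested it, with adjusted p-values from 0.000588 to 0.0138. DESeq2 gave it no adjusted p, and a filter on a mean of at least 5 CPM left it out. Replicate 3 of days 16 to 18 and replicate 1 of days 21 to 24 stood above the other late libraries. MSTRG.3282 reached at most 3 counts in the libraries of days 1 to 4, and days 10 to 14 had 0.786, 0.844, 0.152 and 0 CPM in replicates 2 to 5.

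MSTRG.15982 was the more abundant of the rising pair. It had 594, 695 and 758 CPM at days 16 to 18 and 474 and 466 CPM at days 21 to 24. At days 6 to 8 the values were 9.99, 4.86, 80.0, 78.2, 0.540 and 1.03 CPM in replicates 1 to 6. The late libraries thus lay close to each other, while those of days 6 to 8 spread widely below them. The fitted log2 fold change was 4.28 (edgeR adjusted p 0.0376). This call was lost in 14 of 23 alternatives, with adjusted p-values from 0.0047 to 0.18 over all of them and fold changes from 4.02 to 4.92. At days 10 to 14 the libraries of this ID fell apart, with 388 and 159 CPM in replicates 2 and 3 and 1.14 and 3.78 CPM in replicates 4 and 5.

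Of the IDs that fell, MSTRG.27131 was nearly lost by days 16 to 24. It had 0.0748, 0.554 and 0.223 CPM at days 16 to 18 and 0.0833 and 0.433 CPM at days 21 to 24, with at most 7 counts in a library. At days 6 to 8 it had 9.65, 25.4, 3.98, 12.9, 3.51 and 6.81 CPM in replicates 1 to 6. All libraries of days 6 to 8 were above all late ones, and the fitted log2 fold change was -5.16 (edgeR adjusted p 0.00904). The call was lost when either library of days 21 to 24 was left out, with an adjusted p of 0.0837 for replicate 1 and 0.0758 for replicate 2, and over all alternatives the adjusted p ranged from 6.48e-07 to 0.0837. Earlier libraries held more of MSTRG.27131, with 260 and 407 CPM at day 1, 88.2 and 131 CPM at day 2 and 10.1 to 624 CPM in the 6 libraries of days 3 to 4.

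MSTRG.2860 fell by less and from a higher level. It had 20.3, 19.2 and 13.1 CPM at days 16 to 18 and 24.4 and 15.2 CPM at days 21 to 24, against 116, 223, 83.8, 91.8, 150 and 194 CPM in replicates 1 to 6 of days 6 to 8. Its mean was 18.4 ± 4.43 CPM in the late libraries (SD, n = 5), against 143 ± 56.3 CPM in those of days 6 to 8 (SD, n = 6), and the fitted log2 fold change was -2.94 with an edgeR adjusted p of 0.000131. This call held in all 23 alternatives, with adjusted p-values from 7.47e-15 to 0.00488. Its level at day 2 was 432 and 538 CPM, the 6 libraries of days 3 to 4 had 171 to 460 CPM, and days 10 to 14 had 48.6, 35.1, 111 and 89.3 CPM in replicates 2 to 5.

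**Figure D3:**
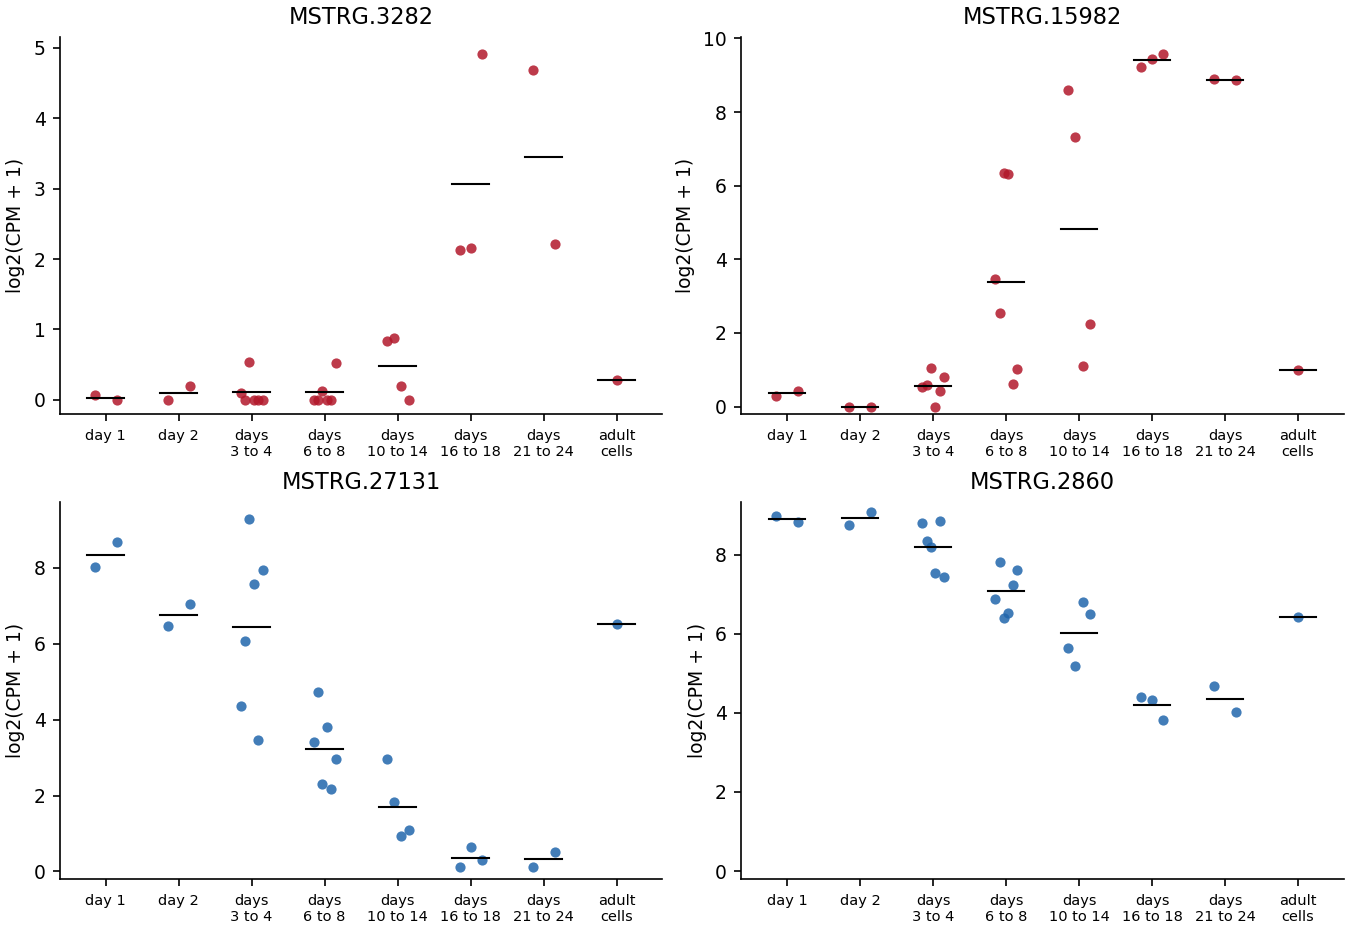
The 2 rising IDs (red) and 2 falling IDs (blue) with the widest gap between libraries among called IDs with a log2 change of at least 1 and a mean of at least 10 CPM where higher, as log2(CPM + 1) in every library by time window. Points are libraries and bars are means of the plotted values. The adult library lies far below days 16 to 24 for both rising IDs (0.221 and 0.995 CPM) and above them for both falling IDs (90.7 and 84.6 CPM).

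The mean of days 10 to 14 lay between both ends for most of the called IDs. These 4 libraries are not in the contrast that chose the IDs, but they share its filter and its estimate of the spread. With 1 of them left out, 1669 to 1703 of the 1765 IDs were called again. Each ID was given a position, on which the mean of days 6 to 8 is 0% and that of days 16 to 24 is 100% on the log2 CPM scale. The mean of the 4 libraries of days 10 to 14 lay between both ends in 605 of the 680 IDs that rose (89.0%) and in 1010 of the 1085 that fell (93.1%), compared with 49.5% of all IDs tested. Single libraries of days 10 to 14 lay between in fewer, in 59.0% to 79.1% of the rising and 68.2% to 74.7% of the falling IDs, compared with 26.3% to 30.9% of all tested. Positions between are more frequent where both ends are far apart, so the share among called IDs is not directly comparable with that among all. The median position was 35.3% for rising and 37.1% for falling IDs, close to the 39.7% over all IDs tested. Only 193 (28.4%) of the rising and 293 (27.0%) of the falling IDs lay nearer to days 16 to 24, and the mean of days 10 to 14 was past the late mean in 0.294% and 0.645% of them. It was on the far side of days 6 to 8 in 10.7% of the rising and 6.27% of the falling IDs.

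The 4 libraries of days 10 to 14 were not alike. For rising IDs the median position was 52.6%, 33.2%, 16.0% and 40.6% in replicates 2 to 5, a mean of 35.6% ± 15.3 (SD, n = 4). Measured the same way, with each library left out of its own group's mean, libraries of days 6 to 8 ranged from -14.2% to 21.9%, those of days 16 to 18 from 82.6% to 91.9% and those of days 21 to 24 from 110% to 119%. Replicate 4 of days 10 to 14 thus lay below replicates 3 and 4 of days 6 to 8, which stood at 17.8% and 21.9%. Over all IDs tested, days 10 to 14 stood at 48.7%, 30.5%, 29.0% and 60.3% and these replicates of days 6 to 8 at 36.9% and 36.5%, so the spread of the libraries is not particular to the rising IDs. For falling IDs the 4 libraries stood at 36.7%, 33.1%, 29.5% and 50.6%, all above the 6 libraries of days 6 to 8, which ranged from -34.4% to 24.5%. The libraries of both ends made the contrast that chose the IDs, and these positions are a description.

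In a direct test of days 10 to 14 against the midpoint of both ends, 0 of 23995 IDs (0%) passed an edgeR adjusted p of 0.05. An unadjusted p under 0.05 was found for 1038 IDs (4.33%), and DESeq2 called 12 of the 19767 IDs it adjusted (0.0607%), 9 above (0.0455%) and 3 below the midpoint (0.0152%). Without replicate 4 of days 10 to 14 edgeR called 3 IDs.

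The 78 called IDs with a gap of at least 1 on the log2 scale were looked at next. Each library of days 10 to 14 could be placed on the side of days 6 to 8, in the gap or on the late side. No such count was made over all IDs tested. Among the 39 rising IDs, replicate 2 was on the side of days 6 to 8 for 8 IDs, in the gap for 20 and on the late side for 11. Replicate 4 was on the side of days 6 to 8 for 26, in the gap for 8 and on the late side for 5. In 16 of these 39 IDs, libraries of days 10 to 14 were found on both sides of the gap. The order of the libraries was not the same for the 39 falling IDs, where replicate 2 was on the side of days 6 to 8 for 22 IDs and on the late side for 2, and replicate 5 was on the side of days 6 to 8 for 9 and on the late side for 11. In 13 of these 39 IDs both sides were occupied.

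**Figure D4:**
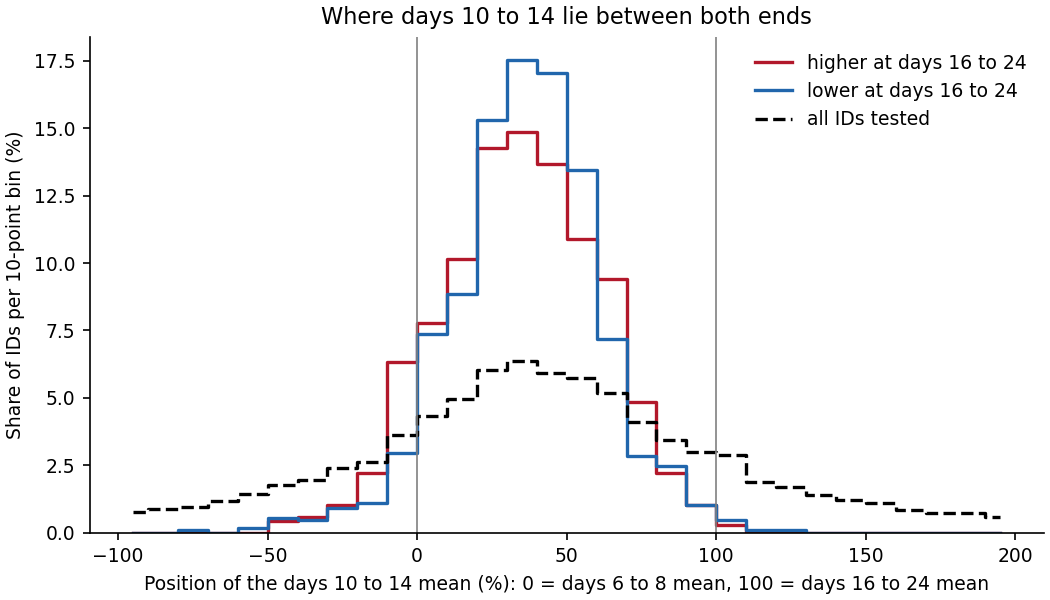
Position of the mean of days 10 to 14 for rising (red), falling (blue) and all tested IDs (dashed), as the share of IDs in bins of 10 percentage points; grey lines mark the means of days 6 to 8 (0%) and days 16 to 24 (100%). Positions outside the axis range are not drawn. Called IDs pile up between both lines with medians of 35.3% and 37.1%, and the distribution of all tested IDs is wider around a median of 39.7%.

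At the start of regeneration, most of the called genes lay on the side of days 6 to 8 away from the late windows. The mean of days 1 and 2 was below that of days 6 to 8 in 480 of the 680 IDs that rose (70.6%) and above it in 703 of the 1085 that fell (64.8%), where 53.2% of all IDs tested had days 1 and 2 on the side away from the late windows. The median of the rising IDs relative to days 6 to 8 was -0.50 at day 1, -0.43 at day 2 and -0.06 at days 3 to 4 on the log2 CPM scale. That of the falling IDs was 0.62, 0.56 and 0.20. A steady course from days 3 to 4 through every later window was found in 226 of the rising IDs (33.2%) and 462 of the falling IDs (42.6%), against 10.5% of all tested. From days 6 to 8 onward alone, it was found in 60.9% of the rising and 67.9% of the falling IDs, against 21.7% of all tested. The choice of the IDs favours these later steps, so the excess over all IDs is not read as a result. Days 1 and 2 lay between days 6 to 8 and the late level in 174 rising IDs (25.6%) and 309 falling IDs (28.5%), compared with 16.0% of all tested, and past the late level in 26 (3.82%) and 73 (6.73%), compared with 30.7% of all tested.

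The adult library stopped short of the late level for most called genes, mostly within the range of days 6 to 8 or beyond it on the side away from the late windows. It was made from dissociated cells and not from regenerating structures, and it has no replicate, so no test is given. Its median level for the rising IDs differed from the late mean by -1.34 and from days 6 to 8 by -0.09 on the log2 CPM scale. For the falling IDs the differences were 1.85 and 0.54. The rising IDs held 2.54% and the falling IDs 6.71% of its counts. In 487 of the 680 rising IDs (71.6%) the adult level was below all 5 late libraries, and in 836 of the 1085 falling IDs (77.1%) it was above all 5. Over all IDs tested, with the direction taken from the means, the adult library stopped short of every late library in 50.2%. The late libraries entered the choice of the called IDs and the adult library did not. The shares among called IDs are therefore not directly comparable with that over all.

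Set against the range of libraries on each side, the rising IDs divided into several kinds. The adult level was within the range of days 6 to 8 only in 232 IDs (34.1%) and below every library of days 6 to 8 in 221 (32.5%), where 31.3% of all IDs tested lay beyond days 6 to 8 on the side away from the late windows. It was within the late range only in 132 (19.4%) and above every late library in 40 (5.88%). For the falling IDs the adult level was above every library of days 6 to 8 in 470 (43.3%) and within the range of days 6 to 8 only in 340 (31.3%). It was within the late range only in 111 (10.2%) and below every late library in 78 (7.19%). Over all IDs tested, the adult level was within the range of days 6 to 8 only in 20.7%. It was within the late range only in 8.16% and beyond the late range in 17.2%, so being beyond the late range was less frequent among called IDs. Among the called IDs with a gap of at least 1, the adult level was on the side of days 6 to 8 in 29 of 39 that rose. The same held in 30 of 39 that fell, and it was on the late side in 3 and 4. These were not counted over all IDs tested. Both rising IDs shown above were near 0 in the adult library, with 0.221 CPM of MSTRG.3282 and 0.995 CPM of MSTRG.15982. Of the falling IDs, MSTRG.27131 had 90.7 CPM and MSTRG.2860 had 84.6 CPM there.

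The adult level depends on how that library is scaled. Scaling every library by its total lowers the adult level relative to days 6 to 8 by 0.41 on the log2 scale, against the scaling used here. With it, 554 of the rising IDs lay below all late libraries and 754 of the falling IDs above them.

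**Figure D5:**
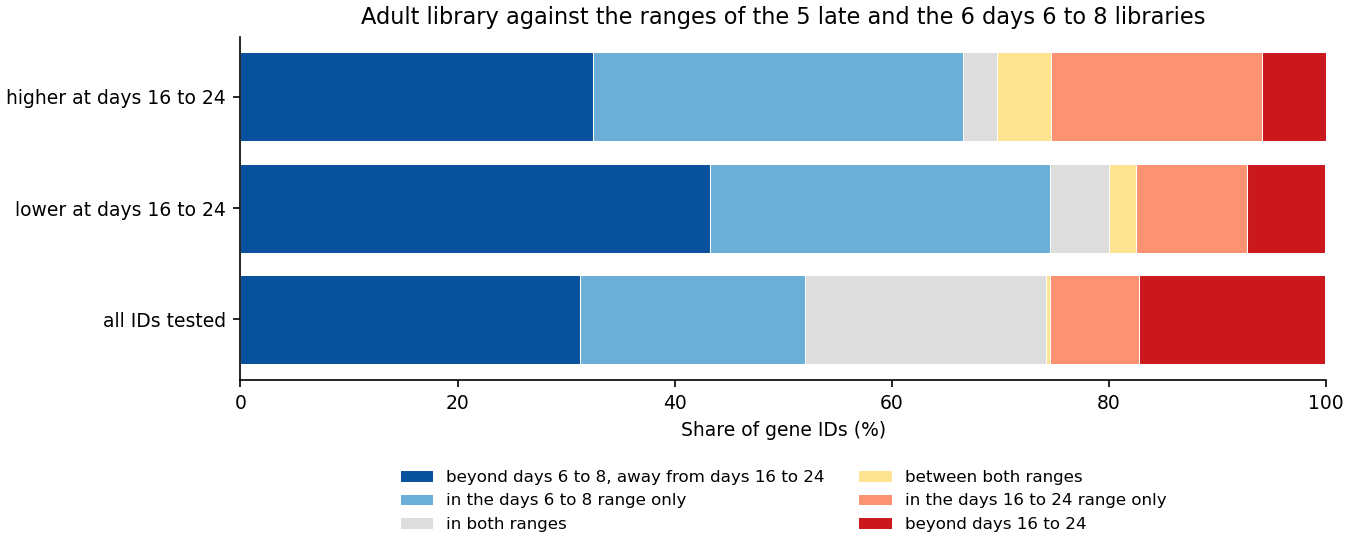
Place of the adult library against the ranges of the 5 libraries of days 16 to 24 and the 6 libraries of days 6 to 8, in percent of the 680 rising, 1085 falling and all 23995 tested IDs. Blue parts lie on the side of days 6 to 8 and red parts on the late side. The late range alone or beyond it holds 19.4% and 5.88% of the rising and 10.2% and 7.19% of the falling IDs. For all tested IDs these shares are 8.16% and 17.2%.

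The labels also number the sample sets, and the comparison was repeated within each set that holds a late library. In set 1, with 2 late libraries, the median difference of days 16 to 24 from days 6 to 8 was 1.31 for the rising and -1.43 for the falling IDs. In set 2, also with 2 late libraries, it was 1.44 and -1.94. In set 3, with 1 late library from days 16 to 18, it was 0.86 and -0.78. The direction was that of the joint comparison in 680, 680 and 632 of the 680 rising IDs and in 1049, 1071 and 929 of the 1085 falling IDs for sets 1, 2 and 3. All these libraries entered the joint comparison, so these numbers show how evenly the sets share it.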

How the data were processed

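For each library the authors deposited a table of raw counts, whole numbers for every gene ID. Per the submitters' processing notes, Trimmomatic 0.36, HISAT2, StringTie, featureCounts, DESeq2 and Bowtie2 were used; their roles, the genome build and the strand setting are not given in the sources used here. Per the labels' protocols, RNA was extracted with Trizol and libraries were made with the Lexogen SENSE mRNA kit. Reads of overlapping genes or of near-identical copies may be divided between IDs, which leaves single IDs uncertain. There are 22 distinct index sequences over 26 libraries, and the labels name no sequencing pool.

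From the counts, 1 model was fitted in edgeR 4.0.16 under R 4.3.3 to all 25 libraries of regenerating structures, with window as its only factor (filterByExpr filter, TMM scaling, glmQLFit with robust = TRUE). It kept 23995 IDs. The main contrast was the mean of both late windows minus days 6 to 8, two-sided. CPM use TMM-scaled totals, log2 CPM a prior count of 2, and the adult library was scaled together with the others. Descriptions used Python 3.11.15, NumPy 2.4.6 and pandas 2.3.3. The procedure was tested on simulated data.

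The named IDs follow a rule stated with them: called, fold change and level as given, then the widest gap. Members, lists and tests were chosen with earlier results of these data known. Alternatives were other scalings, DESeq2 1.42.0, other filters, blocks, thinning, other groupings and leaving out libraries.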

Additional observations from a re-analysis of the deposited data

Results flagged for a closer look

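Dixon's test looked for a library apart from the rest of its window in 18 sets of values at days 6 to 8 or days 10 to 14. It found 1, where chance gives about 1 in 20. MSTRG.3282 had 0.431 CPM (5 counts) in replicate 6 of days 6 to 8, while the other 5 had 0 to 0.0903 CPM. All 5 late libraries were above it, which the choice of this ID fixes, and the lowest had 3.36 CPM.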

How the results depend on the processing

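None of the 1765 IDs changed direction in any alternative that tested it. The number called was 2969 in DESeq2 (1753 shared with edgeR), 684 with only sets 1 to 3 of days 6 to 8, 2363 in a fit of only the libraries compared (1037 higher against 680), and 364 to 1835 when 1 library of the compared windows was left out. With the late libraries as 1 group it was 1503, and 647 to 1531 with 1 library left out as well, a fit chosen after seeing the data; 700 and 647 were reached without replicates 1 and 2 of days 21 to 24, 999 without replicate 1 of days 16 to 18 and 925 without replicate 2 of days 6 to 8. For days 16 to 18 alone DESeq2 called 1091, and leaving out a library gave 66 to 388, with 156, 176 and 142 without replicates 2, 5 and 6 of days 6 to 8 and 79, 66 and 164 without replicates 1, 2 and 3 of days 16 to 18. For days 21 to 24 alone DESeq2 called 2065, and leaving out a library gave 60 to 925, with 121 and 60 without replicates 1 and 2 of days 21 to 24. A window with 1 library left is assumed to vary like the others. The midpoint test gave 12 in DESeq2 and 0 to 3 when a library was left out. The share of falling IDs between both ends was 90.1% for IDs called by DESeq2 and 87.8% to 90.4% with 1 library of days 10 to 14 left out; for rising IDs it moved by less than the spread of the 4 libraries. Of the 454 rising IDs with a log2 change of at least 1, 322 (70.9%) were below all late libraries in the adult, a share near the 71.6% of all 680.

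No pairing by replicate number was seen between the late windows and days 6 to 8. Deviations of same-set libraries correlated at -0.132 to 0.086, and 0 of 5 late libraries correlated best with their own set. With 2 or 3 libraries in a late window, these values cannot exclude a pairing. Correlations under other numbers are given at the end. Between days 10 to 14 and days 16 to 18, same-set libraries by set label correlated at 0.00178, 0.127 and 0.405. Those of different sets correlated at -0.285 to 0.189. With the title's number as a replicate block, 1152 IDs were called in the joint comparison, 102 at days 16 to 18 and 538 at days 21 to 24; with the set label, 1344 in the joint comparison. The cause of these shifts was not tested.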

Other observations

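Libraries of 1 window fell into closer and more distant pairs, which no label names. At days 6 to 8 the chi-square per gene between libraries was 32.3, 24.0 and 27.2 for the pairs of replicates 1, 3 and 4, and 31.7, 27.3 and 32.3 for the pairs of replicates 2, 5 and 6. The other pairs of that window ranged from 46.2 to 85.9. At days 10 to 14 it was 30.3 for replicates 2 and 3, 51.8 for replicates 4 and 5 and 89.7 to 99.2 for the other pairs. The IDs that fell by days 16 to 24 held 6.07%, 5.30% and 7.05% of the counts in replicates 1, 3 and 4 of days 6 to 8, and 14.6%, 12.0% and 11.3% in replicates 2, 5 and 6. At days 10 to 14 they held 4.91% and 4.74% in replicates 2 and 3 and 9.02% and 7.20% in replicates 4 and 5. MSTRG.15982 stood at 9.99, 80.0 and 78.2 CPM in replicates 1, 3 and 4 of days 6 to 8 and at 4.86, 0.540 and 1.03 CPM in replicates 2, 5 and 6. At days 16 to 18, replicates 1 and 2 had a chi-square per gene of 15.1, and replicate 3 had 60.9 and 63.1 with them. Deviations across windows followed the groups of days 6 to 8 in part. Replicate 3 of days 10 to 14 correlated at 0.109 to 0.437 with replicates 1, 3 and 4 of days 6 to 8. With replicates 2, 5 and 6 it was -0.392 to -0.269. For replicate 4 of days 10 to 14 these ranges were -0.322 to -0.28 and 0.0873 to 0.398. For replicate 3 of days 16 to 18 they were -0.132 to -0.114 and -0.0488 to 0.202. Days 21 to 24 gave -0.139 to 0.139. The model has no factor for such groups. The cause was not tested.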
